A study of Mus musculus with 35 samples.

Results

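Desmosomes are the junctions that rivet keratinocytes to one another, and 10 genes that encode their proteins were followed through healing skin wounds. The genes were the desmogleins Dsg1a, Dsg1b and Dsg3, the desmocollins Dsc1, Dsc2 and Dsc3, the plaque proteins desmoplakin (Dsp) and plakoglobin (Jup), and the plakophilins Pkp1 and Pkp3. Each was taken by its gene symbol, and together they made up 10 of the 22830 symbols in the counts. The list was chosen with earlier results of these data known. In a desmosome the desmogleins and desmocollins are cadherins that bind across the gap between cells. Jup and the plakophilins link the cadherin tails to Dsp, and Dsp anchors the complex to keratin filaments. In mouse epidermis Dsg3, Dsc3 and, more weakly, Dsc2 belong mainly to the basal and lower layers, while Dsg1a, Dsg1b and Dsc1 belong mainly to the differentiating upper layers.

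RNA was sequenced in bulk from a punch biopsy of the middle of each dorsal full-thickness wound. In Col5a1CKO mice, tamoxifen, which all groups received, activated a Col1a2CreERT transgene and deleted floxed Col5a1, which encodes a chain of type V collagen. The Col1a2 promoter drives the recombinase in fibroblasts, so keratinocytes were not its target. The controls, called WT, were Col5a1 fl/fl littermates without the transgene on the same B6 background, and both sexes were used at 8 to 12 weeks of age. At day 14 there were 7 WT wounds, 7 Col5a1CKO wounds and 3 Col5a1CKO wounds injected with cultured WT fibroblasts (replicates a to g or a to c). Day 19 was sampled with 3 wounds of each genotype. In the titles the fibroblast injection belongs to the 3 wounds of day 14, but the treatment field names WT fibroblasts for the 3 Col5a1CKO wounds of day 19 and not for those of day 14, and the titles were followed. A separate experiment at day 14 held 4 wounds each of WT with vehicle (PBS), Col5a1CKO with vehicle and Col5a1CKO with daily injections of cilengitide, an inhibitor of alpha v integrins (replicates 1 to 4). By the study's methods its replicates are biologically separate, and mice not given fibroblasts had PBS alone, although the labels of the day 14 wounds name no vehicle. RNA of Xist, which marks females, and Y-linked RNA showed that sexes were not balanced: all 3 Col5a1CKO wounds of day 19 held Xist RNA against 2 of 3 WT wounds, and of the 4 Col5a1CKO wounds with vehicle 0 held Xist RNA, 3 held Y-linked RNA and 1 held neither, against 2 of 4 WT wounds with Xist RNA. All 3 injected wounds of day 14 held Xist RNA. Of the 4 Col5a1CKO wounds with cilengitide 2 held Xist RNA and 2 held Y-linked RNA, so these too were not balanced against vehicle. The part of sex in the differences was not tested.

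Depth was 15043531 to 35700325 counts per library in the fibroblast and time-course experiment and 51211600 to 68266760 in the cilengitide experiment. Levels are TMM-scaled counts relative to library depth (CPM), and levels compared between genes are also divided by transcript length in kilobases (RPKM). Markers of basal keratinocytes, 7 genes led by Krt5 and Krt14, summed to 8943 to 48323 CPM in WT wounds of day 14 and 39.4 to 24175 CPM in Col5a1CKO wounds, so some biopsies held little epithelial RNA. In bulk tissue, fewer keratinocytes and less desmosome RNA per keratinocyte cannot be told apart. The deleted gene itself ranged from 347 to 2386 CPM in WT wounds of day 14 and from 170.03 to 663 CPM in Col5a1CKO wounds, with overlap. The libraries of the fibroblast and time-course experiment fell into 2 sets by the balance of GC-rich and GC-poor genes, called the lower set (of day 14, replicates a to d of WT and replicates a to e of Col5a1CKO) and the upper set (all others). The gap between the sets was 1.54 on the log2 scale, against 0.395 for the next widest gap.

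The sets mattered for the plaque genes. Among the 7 WT wounds of day 14 alone, 4 of 10 desmosome genes were called higher in the 3 upper-set than in the 4 lower-set libraries, where 15.7% of all genes were. A gene was called where its p, from edgeR's quasi-likelihood test and adjusted over all genes by the Benjamini-Hochberg method, was under 0.05 and its change at least 2-fold. The 4 were Jup (log2 difference 3.61, SE 0.25), Pkp3 (2.74, SE 0.14), Pkp1 (2.04, SE 0.15) and Dsp (1.65, SE 0.14). Their transcripts hold 51.6% to 60.3% GC, while those of the 6 cadherins hold 41.9% to 45.4% and none of the 6 was called. Dsc1 differed by -0.59 (SE 0.18) and Dsg1a by -0.30 (SE 0.20), whereas Dsc2 had a difference of 2.15 with an SE of 1.11, and its replicate g was far above the other WT wounds. Across the 10 genes the Spearman correlation of GC content with the difference was 0.745, a description over genes that share the same 7 libraries. Levels of the plaque genes are therefore compared below within a set as well as over all wounds.

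**Figure D1:**
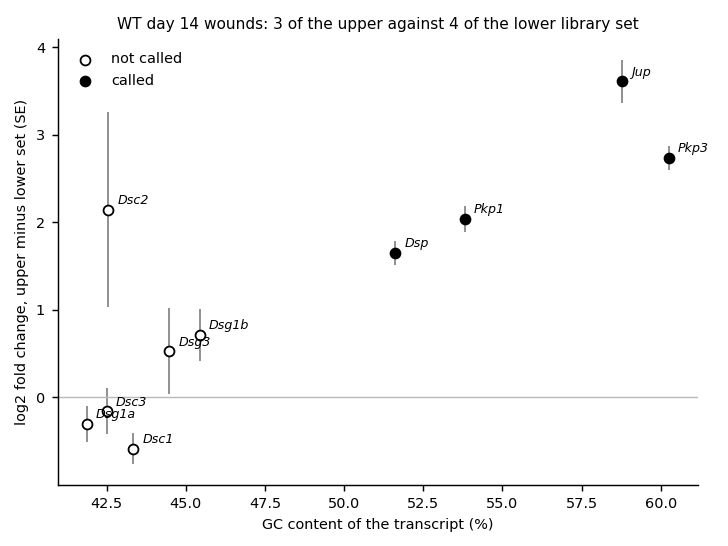
Log2 fold change between the upper and lower library sets in WT wounds of day 14 (y axis, with its standard error) against the GC content of each transcript in percent (x axis). Filled points are called genes: the 4 plaque genes at 51.6% GC or more lay 1.65 to 3.61 above 0, and the cadherins were not called.

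On the NCBI37 build, Dsp lies on chromosome 13 from 38243197 to 38290446 (plus strand), Jup on chromosome 11 from 100230272 to 100259077 (minus strand), Pkp1 on chromosome 1 from 137767972 to 137815784 (minus strand) and Pkp3 on chromosome 7 from 148264117 to 148276409 (plus strand), in the GENCODE annotation of that build. Dsg1a and Dsg1b share 35.0% and 48.8% of their 50-base windows with another gene, mostly with each other and Dsg1c, so the division of reads between them is uncertain. RefSeq promoter windows, 250 bases before to 50 bases after the start on GRCm38.p6, were at hand for 2 of the 10 genes, Dsp (chr13:38151044-38151343, plus strand) and Jup (chr11:100397741-100398040, minus strand). They are shown because they were at hand, and capitals mark the GC box, GGGCGG on either strand. Dsp and Jup levels had a Spearman correlation of 0.833 over 23 and 0.937 over 12 wounds. Medians over all 45 pairs of members were 0.811 and 0.804.
Dsp: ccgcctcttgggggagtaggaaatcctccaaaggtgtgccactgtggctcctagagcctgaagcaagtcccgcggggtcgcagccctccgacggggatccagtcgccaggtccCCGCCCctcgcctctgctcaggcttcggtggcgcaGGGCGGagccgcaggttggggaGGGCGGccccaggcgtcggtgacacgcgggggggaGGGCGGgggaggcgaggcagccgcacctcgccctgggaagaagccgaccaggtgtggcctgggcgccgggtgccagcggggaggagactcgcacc
Jup: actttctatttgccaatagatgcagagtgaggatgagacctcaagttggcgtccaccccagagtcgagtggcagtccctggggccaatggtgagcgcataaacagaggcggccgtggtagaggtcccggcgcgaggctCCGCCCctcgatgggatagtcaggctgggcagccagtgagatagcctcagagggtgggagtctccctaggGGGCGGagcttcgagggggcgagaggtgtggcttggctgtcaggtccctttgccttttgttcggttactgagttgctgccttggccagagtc
The Dsp window holds 4 GC boxes, 102, 80 and 45 bases before the start on the gene's strand and 137 bases before it on the other. The Jup window holds 2, 42 bases before the start on the gene's strand and 112 bases before it on the other, and 35.7% of the 32851 promoters in the table hold at least 1. The GC box was looked for after 4 other motifs, on both strands, gave no match in either window. These were the AP-1 site TGANTCA (in 7.81% of all promoters), the grainyhead site AACCNGTT (2.09%), the p63 half-site pair, CATG and CATG with 6 bases of any kind between them (0.712%) and the TATA box TATAAA (13.6%). The GC content was 73.0% for Dsp and 60.7% for Jup, against a median of 52.7% for all promoters. A match of letters is a description and says nothing of binding.

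The order of the 10 genes by level per length was read where all wounds came from 1 experiment and were alike, the 4 WT wounds with vehicle. Dsp, which anchors keratin, and Pkp1, the main plakophilin of upper layers, had the highest medians, 496 RPKM (445 to 572) and 494 RPKM (436 to 512), and their ranges overlapped. Jup, the linker shared with adherens junctions, had 397 RPKM (364 to 426) and Dsc1 had 325 RPKM (264 to 391). Dsg1a (220.2 RPKM, 141 to 239), Pkp3 (205 RPKM, 192 to 227) and Dsc3 (198 RPKM, 173 to 224) had overlapping ranges. The 6 cadherin genes lie in 1 cluster on chromosome 18. Dsg1b (46.9 RPKM), Dsg3 (29.1 RPKM) and Dsc2 (4.86 RPKM) were the lowest.

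Between wounds the genes ran in parallel, with some exceptions. Over the 23 wounds of the fibroblast and time-course experiment, the Spearman correlation of 2 members had a median of 0.811 over the 45 pairs, from 0.492 to 0.975. Over the 12 wounds of the cilengitide experiment the median was 0.804, from 0.0350 to 0.986, and the lowest values were those of Dsc2, whose 9 pairs had a median of 0.210. The wounds of a correlation differ in group and in epithelial content, so it carries no test. The genes most like the mean of the 10 members, among genes averaging at least 5 CPM, were Cwh43, Mpzl2, Slc28a3, Endou and Ptk6 in the first experiment (Spearman 0.970 to 0.983 over 23 wounds) and Dip2b, Serinc2, Ppm1g, B4galnt3 and 2310046K01Rik in the second (0.951 to 1 over 12 wounds). The mean of 6 epithelial genes (Cdh1, Esrp1, Grhl2, Krt5, Krt14 and Trp63), used below as the epithelial reference, had 0.945 in the first and 0.559 in the second.

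**Figure D2:**
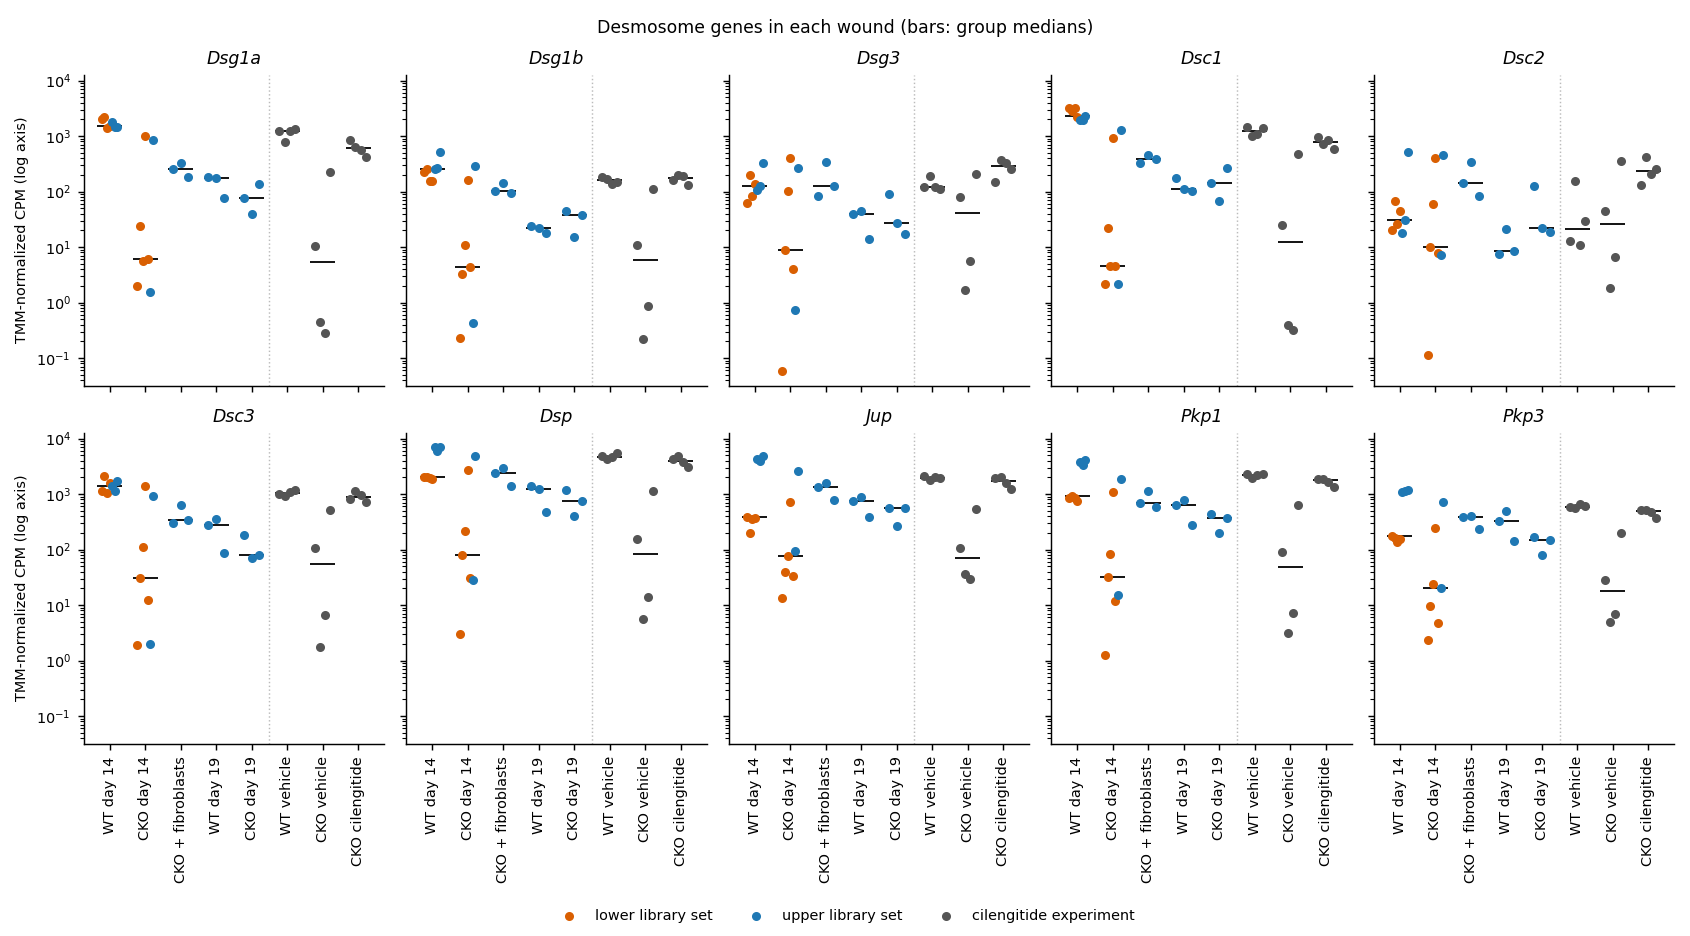
TMM-normalized CPM (log axis) of each desmosome gene in each wound, by group, with the library set in colour and group medians as bars. Among the 7 Col5a1CKO wounds of day 14 and the 4 Col5a1CKO wounds with vehicle, the points of a gene spread over several orders of magnitude, from 2.98 to 4788 CPM for Dsp at day 14.

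The first question was how loss of Col5a1 changed the wound at day 14. Desmosome RNA was low in 5 of the 7 Col5a1CKO wounds and high in the other 2, and no gene of the 10 passed the test. In Col5a1CKO replicates d and g every member had at least 164 CPM, and in replicates a, b, c, e and f no member exceeded 218 CPM. Dsg1a, the upper-layer desmoglein, had 1401 to 2183 CPM (median 1505) in WT wounds, and in Col5a1CKO wounds 1.55 to 989 CPM (median 6.20) (n = 7 each). Dsc1, the upper-layer desmocollin, had 1921 to 3185 CPM (median 2315) in WT wounds, and in Col5a1CKO wounds 2.14 to 1279.8 CPM (median 4.64). For both genes every Col5a1CKO wound lay below every WT wound. These were 2 of 10 members, against 1.72% of all genes whose Col5a1CKO wounds all lay lower. The fitted log2 fold change was -2.65 (SE 1.29) for Dsg1a and -2.96 (SE 1.35) for Dsc1, with adjusted p of 0.198 and 0.171 in edgeR with Benjamini-Hochberg adjustment.

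The lower-layer cadherins overlapped between the genotypes. Dsc3 had 1059.6 to 2099 CPM (median 1386) in WT wounds, and in Col5a1CKO wounds 1.89 to 1378 CPM (median 30.5), a log2 fold change of -2.04 (SE 1.16). Dsg3 had 62.8 to 326 CPM (median 124) in WT wounds, and in Col5a1CKO wounds 0.0574 to 399 CPM (median 8.86), and its log2 fold change was -0.39 (SE 1.16). The lowest Dsg3 value rests on 1 read and the lowest Dsc2 value on 2 reads, both in replicate a. Dsc2 had 18.2 to 512 CPM (median 30.8) in WT wounds, and in Col5a1CKO wounds 0.115 to 456 CPM (median 9.84), with a log2 fold change of 0.42 (SE 1.25). Dsg3 and Dsc2 were thus the members with the smallest fitted differences, while Dsg1b had -1.90 (SE 1.19).

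The plaque genes also overlapped. Dsp had 1901 to 7144 CPM in WT wounds, and in Col5a1CKO wounds 2.98 to 4788 CPM, and a log2 fold change of -1.79 (SE 1.20). Jup had 197 to 4812 CPM in WT wounds, and in Col5a1CKO wounds 13.5 to 2601 CPM (-1.94, SE 1.18). Within the lower set Dsp had 1901 to 2056 CPM in WT wounds, against 2.98 to 2727 CPM, and Jup 197 to 379 CPM against 13.5 to 707 CPM. Within the upper set Dsp had 5922 to 7144 CPM in WT wounds, against 28.5 and 4788 CPM, and Jup 3907 to 4812 CPM against 93.5 and 2601 CPM. There the 3 WT wounds held Y-linked RNA and the 2 Col5a1CKO wounds Xist RNA, so sex and genotype cannot be told apart. Pkp1 had -2.16 (SE 1.23) and Pkp3 -1.91 (SE 1.15). In all, 0 of 10 members were called lower against 2.71% of all genes, and 1 passed an unadjusted p under 0.05 with a 2-fold change. DESeq2 called 1 member lower, Dsc1, where it called 920 of 19086 genes lower. The median log2 fold change of the members was -1.93, against -0.03 over all 14367 genes tested. It was -1.73 within the lower set (4 WT and 5 Col5a1CKO wounds) and -1.53 within the upper set (3 and 2), with 0 called in either. Basal markers were given above, and 6 suprabasal markers such as Krt1 and Krt10 summed to 20309 to 147710 CPM in WT wounds, and in Col5a1CKO wounds 48.1 to 41678 CPM, with none of the basal or suprabasal markers under a group median of 1 CPM. Leukocyte markers summed to 1695 to 11550 CPM and 3230.3 to 22456 CPM, and the part of these shifts in the differences was not tested. Other genes of cell junctions behaved alike in the counts: of 8 tested genes of other desmosome and cornified-envelope proteins, of 12 genes of adherens and tight junctions and of 7 epidermal transcription factors, none was called, with median log2 fold changes of -1.63, -0.63 and -1.90. Leaving out Col5a1CKO replicate g gave 2 calls, Jup and Pkp3, both lower, where 984 of 14412 genes were called lower. Without it, replicate f was the only Col5a1CKO wound of the upper set, against 3 WT wounds. In WT wounds alone Jup and Pkp3 were higher in that set, by 3.61 and 2.74 on the log2 scale. The part of the set in these 2 calls was not tested.

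At day 19 the question was whether the genotypes still differed. Desmosome genes overlapped between WT and Col5a1CKO wounds (n = 3 each) for all 10 members. Of all 15135 genes tested, 2789 had every Col5a1CKO wound below every WT wound and 2486 had every one above. The treatment field of these Col5a1CKO wounds names WT fibroblasts, unlike their titles. None of the 10 was called in either direction, against 0.0198% of 15135 genes. Of the members 1, Dsc2, had an unadjusted p under 0.05 with a 2-fold change. DESeq2 called it higher, where 708 of 18931 genes were called higher. Dsc2 had 7.42, 20.7 and 8.55 CPM in WT and 125, 22.4 and 18.8 CPM in Col5a1CKO wounds, with a log2 fold change of 2.28 (SE 0.87, adjusted p = 0.192 from edgeR with Benjamini-Hochberg adjustment). Replicate a of Col5a1CKO was the highest, and the lowest Col5a1CKO wound lay below the highest WT wound. Pkp3, a plakophilin found in all layers, had 321, 498 and 145 CPM in WT and 171, 81.0 and 149.8 CPM in Col5a1CKO wounds, and its log2 fold change was -1.17 (SE 0.49). The other 8 members had log2 fold changes from -1.04 for Dsc3 to 0.67 for Dsg1b. The median over members was -0.42, against -0.01 over all genes.

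The levels themselves can be set side by side for the 2 days in WT wounds of the upper set. Dsg1a had 1820.2, 1435 and 1448 CPM in replicates e, f and g of day 14 and 183, 178 and 77.3 CPM at day 19. Dsc1 had 1921, 1929 and 2315 CPM and then 174, 109 and 103 CPM. For Dsp the values were 7046, 5922 and 7144 CPM and then 1418, 1232 and 469 CPM. With these 3, 9 of 10 members had every wound of day 19 below every wound of day 14, against 31.1% of all genes, and Dsc2 overlapped, with 18.2, 30.8 and 512 CPM and then 7.42, 20.7 and 8.55 CPM. The 3 WT wounds of day 14 in that set held Y-linked RNA, against 1 of the 3 at day 19, where 2 held Xist RNA. This contrast between days was not part of a test, nor was the part of sex in it. Basal markers summed to 6012 to 14889 CPM and suprabasal markers to 9897 to 17469 CPM in WT wounds of day 19, and their part in it was not tested. A model with genotype, day and their interaction called 0 of 10 members and 0 of 15954 genes (edgeR), and 0 members passed an unadjusted p under 0.05 with a 2-fold difference. The fitted interaction ranged from 0.70 (SE 1.83) for Pkp3 to 3.27 (SE 2.13) for Dsc1 on the log2 scale, with adjusted p of at least 0.964 from edgeR with Benjamini-Hochberg adjustment, so a difference between the days' genotype effects was not detectable at this spread. DESeq2 also called 0 members.

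**Figure D3:**
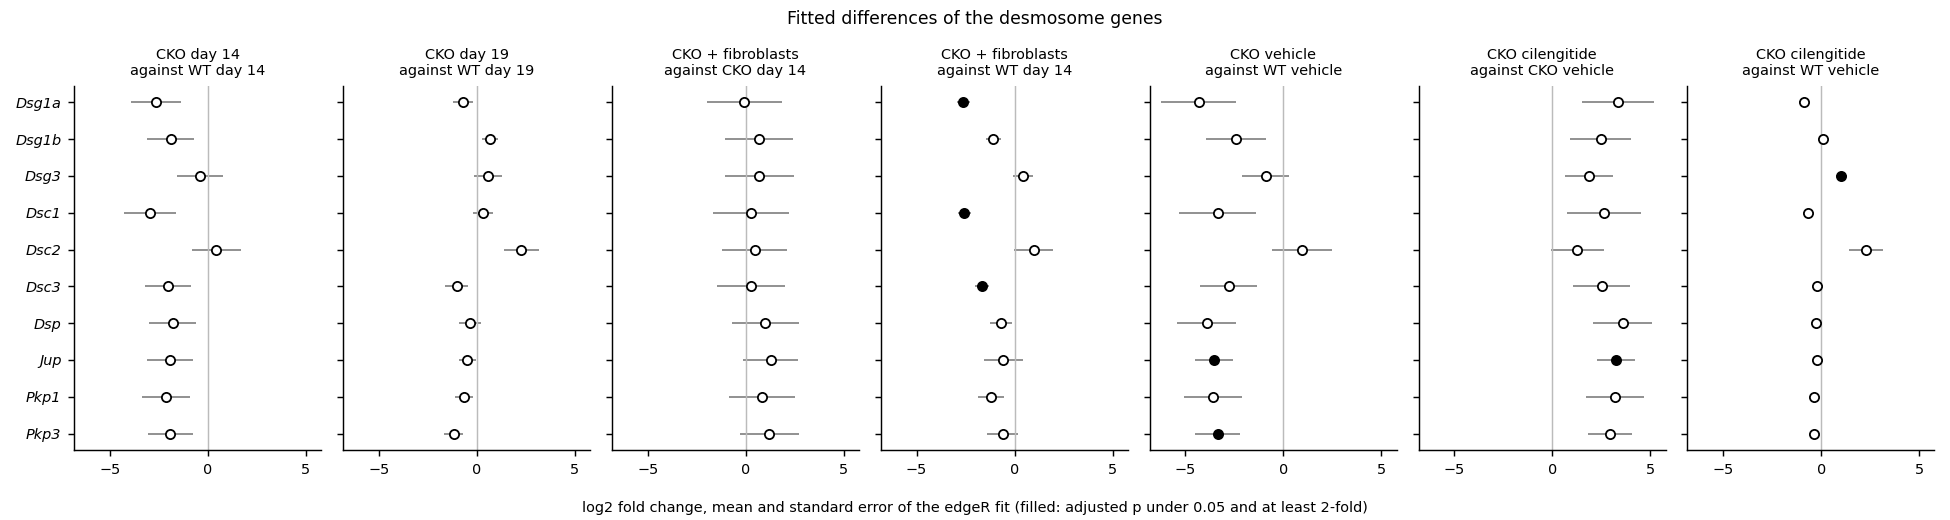
Log2 fold change with its standard error (x axis) of each desmosome gene in each of the 7 comparisons. Filled points were called: Dsg1a, Dsc1 and Dsc3 lower in Col5a1CKO wounds with fibroblasts than in WT, Jup and Pkp3 lower in Col5a1CKO than WT with vehicle, Jup higher with cilengitide than with vehicle, and Dsg3 higher with cilengitide than in WT.

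The next question was what injected WT fibroblasts did to Col5a1CKO wounds at day 14. The Col5a1CKO wounds without fibroblasts ran from very low to high levels of desmosome RNA, the 3 injected wounds lay inside that range, and the groups overlapped for all 10 members. Dsp had 2450.1, 2899.7 and 1406 CPM in replicates a, b and c of the injected wounds, against 2.98 to 4788 CPM (median 81.2) in Col5a1CKO wounds without fibroblasts. Jup had 1329, 1577 and 791 CPM, against 13.5 to 2601 CPM (median 76.6). Dsg1a had 255, 328 and 185 CPM, against 1.55 to 989 CPM (median 6.20). Each injected wound lay above at least 5 of the 7 wounds without fibroblasts in these 3 genes, and below replicate g. The test of edgeR called 0 of 10 members against 0.0% of 15659 genes, 0 members passed an unadjusted p under 0.05 with a 2-fold change, and DESeq2 called 0. Genes whose injected wounds all lay higher made up 0.364% of all genes and none of the members. The log2 fold changes ran from -0.07 (SE 1.92) for Dsg1a to 1.27 (SE 1.42) for Jup, with a median of 0.70. All injected wounds belong to the upper set. Within that set, against Col5a1CKO replicates f and g alone, the median was -0.11 and the direction turned for 8 members, so no direction holds here.

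Against WT wounds of day 14, the cadherins Dsg1a, Dsc1 and Dsc3 were low in the injected wounds. Dsg1a had 255, 328 and 185 CPM, against 1401 to 2183 CPM in WT. Dsc1 had 333, 452 and 387 CPM, against 1921 to 3185 CPM. Dsc3 had 307, 629 and 342 CPM, against 1059.6 to 2099 CPM. No injected wound reached the lowest WT wound in any of the 3 genes. Their log2 fold changes were -2.61 (SE 0.33, adjusted p = 0.00162), -2.57 (SE 0.33, adjusted p = 0.00171) and -1.65 (SE 0.35, adjusted p = 0.0189) in edgeR with Benjamini-Hochberg adjustment. These were 3 of 10 members called lower, against 2.06% of 15317 genes, and with all groups in one fit 0 of 10 were called. With Dsg1b, 4 members had every injected wound below every WT wound, against 10.1% of all genes. Dsg1b, which had 100.4, 140.1 and 92.8 CPM against 153 to 513 CPM, had -1.09 (SE 0.39) and was not called. Dsc3 was not called without injected replicate a or without injected replicate c. Dsc2 was called higher without WT replicate g, where 515 of 15152 genes were called higher.

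Dsg3 and Dsc2 were not called. Dsg3 had 83.2, 344 and 126 CPM in the injected wounds and 62.8 to 326 CPM in WT, a log2 fold change of 0.43 (SE 0.53). Dsc2 had 141, 334 and 81.4 CPM and 18.2 to 512 CPM, a log2 fold change of 0.98 (SE 1.0025). Both overlapped between the groups. For the plaque genes the set mattered, since 4 of the WT wounds belong to the lower set. Over all wounds Jup had -0.57 (SE 1.003), but within the upper set it had 791 to 1577 CPM in injected and 3907 to 4812 CPM in WT wounds, and a log2 fold change of -1.66. There 8 members were called lower, against 11.2% of all genes in that set, all but Dsg3 (0.11) and Dsc2 (0.11), and the log2 fold change was -2.47 for Dsg1a, -2.25 for Dsc1 and -1.60 for Dsc3. In that set the 3 WT wounds held Y-linked RNA and the 3 injected wounds held Xist RNA, so sex and group cannot be told apart there. Among other lists, 1 of 10 other desmosome genes was called lower, Perp (log2 fold change -1.54, SE 0.33), a membrane protein of desmosomes. Of 12 adherens and tight junction genes, 1 was called lower, Cldn1 (-1.69, SE 0.29), the claudin of the epidermal barrier, and of 7 transcription factors none was. Suprabasal markers summed to 5412 to 14807 CPM in the injected wounds and basal markers to 8455 to 20996 CPM, and the suprabasal sums lay below all WT wounds. Their part in the differences was not tested.

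The second experiment asked whether blocking integrins changed wounds of Col5a1CKO mice. It first gave a further comparison of the genotypes, with vehicle. All 4 plaque genes and 4 of the 6 cadherins had every Col5a1CKO wound below every WT wound. Jup had 2135, 1824, 1994 and 1987 CPM in the WT wounds and 106, 35.6, 29.9 and 535 CPM in the Col5a1CKO wounds (replicates 1 to 4). Pkp3 had 575, 559.7, 660.1 and 619 CPM and then 28.5, 5.05, 6.81 and 199.9 CPM. Col5a1CKO replicate 4 was the highest of its group for both, and replicates 2 and 3 the lowest 2. Jup fell by 3.52 (SE 0.97, adjusted p = 0.0191) and Pkp3 by 3.36 (SE 1.16, adjusted p = 0.0437) on the log2 scale in edgeR with Benjamini-Hochberg adjustment. These 2 of 10 members were called lower, against 13.4% of 15434 genes, and 8 of 10 had groups that did not overlap in this direction, against 26.1%.

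The other plaque genes had log2 fold changes of similar size with wider errors. Dsp had 4892, 4264, 4627 and 5486 CPM in WT and 154, 5.52, 13.8 and 1126 CPM in Col5a1CKO wounds (log2 fold change -3.92, SE 1.53, adjusted p = 0.0650 in edgeR with Benjamini-Hochberg adjustment). Pkp1 had -3.60 (SE 1.498). In each, the lowest WT wound was above Col5a1CKO replicate 4 and far above the others. Among the cadherins, Dsg1a had 1241, 794, 1237 and 1346 CPM in WT and 10.4, 0.442, 0.280 and 224 CPM in Col5a1CKO wounds (-4.33, SE 1.92). Dsc1 had -3.36 (SE 1.95), Dsc3 -2.79 (SE 1.45) and Dsg1b -2.42 (SE 1.54). Dsg3 and Dsc2 again stood apart, with overlapping groups. Dsg3 had 120.5, 188, 119 and 110.0 CPM in WT and 78.2, 1.67, 5.56 and 210.2 CPM in Col5a1CKO wounds (-0.90, SE 1.20). Dsc2 had 12.96, 153, 10.98 and 30.004 CPM and then 45.5, 1.86, 6.66 and 356 CPM (0.94, SE 1.53), with replicate 4 of Col5a1CKO above all WT wounds.

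The count of calls depended on single wounds. Without Col5a1CKO replicate 4 it was 8, all lower, against 15.1% of all genes, and without Col5a1CKO replicate 1 it was 0. Without any other single wound it was 1, Jup, and with DESeq2 it was 7, against 13% of all genes. The median log2 fold change of the members was -3.36, against 0.02 over all genes, and -5.39 without replicate 4. Of 10 other desmosome genes 7 were called lower, among them Kazn, which encodes a periplakin-binding protein (log2 fold change -2.52, SE 0.21), and Dsg2 (-3.33, SE 0.51), a desmoglein of proliferating and simple epithelia. The third by adjusted p was Dsg4, a desmoglein of the hair shaft, which had 0.2196 to 75.1 CPM in WT wounds and at most 2 reads in any Col5a1CKO wound. Of 12 adherens and tight junction genes 6 were called lower, among them Ctnnd1 (-1.25, SE 0.20) and Ocln (-3.76, SE 0.77). Of 7 transcription factors 2 were, Klf4 (-2.69, SE 0.57) and Grhl1 (-4.32, SE 1.36). Basal markers summed to 14511 to 22951 CPM in WT wounds, and in Col5a1CKO wounds 134 to 11012 CPM, suprabasal markers to 45683 to 88211 CPM and 27.8 to 1979 CPM, and leukocyte markers to 373 to 2791 CPM and 4766 to 47793 CPM. The 6 hair markers had medians under 1 CPM in the Col5a1CKO wounds. The part of these shifts in the differences was not tested.

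With cilengitide, the 4 plaque genes of Col5a1CKO wounds lay close to WT, with log2 fold changes against WT of -0.23 to -0.36. The cadherins ran from -0.89 (Dsg1a) to 2.28 (Dsc2) against WT, as given below. Jup had 1934, 2049, 1559.6 and 1226 CPM with cilengitide, against 106, 35.6, 29.9 and 535 CPM with vehicle. It rose by 3.24 on the log2 scale (SE 0.96, adjusted p = 0.0437 in edgeR with Benjamini-Hochberg adjustment). Dsp had 4238, 4908, 3712 and 3049 CPM (log2 fold change 3.59, SE 1.4996), and Pkp3 had 526, 507, 477 and 369 CPM (2.95, SE 1.14). Every treated wound was above every vehicle wound for the 4 plaque genes and for Dsg1a, Dsg1b, Dsc1 and Dsc3, which makes 8 of 10 members, against 18.9% of all genes. Of the members 1 of 10 was called higher, Jup, against 6.48% of 15563 genes.

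Dsg3 and Dsc2 overlapped again. Dsg3 had 147, 366, 322 and 259 CPM with cilengitide (log2 fold change 1.87, SE 1.25) and Dsc2 had 132, 413, 206 and 259 CPM (1.28, SE 1.35). In both genes vehicle replicate 4 lay within the treated range. The members' median log2 fold change was 2.80, against -0.06 over all genes. Without vehicle replicate 4 it was 5.27 and 9 members were called higher, all but Dsg3, against 10.6% of all genes. Leaving out any other single wound gave 0 calls, and DESeq2 gave 4, where 1485 of 19350 genes were called higher. Of the other lists, 2 of 9 tested desmosome genes were called higher, Kazn (1.81, SE 0.21) and Dsg2 (2.66, SE 0.52), 5 of 12 junction genes, among them Ctnnd1 (1.09, SE 0.21) and Cdh3 (2.20, SE 0.52), and 1 of 7 transcription factors, Klf4 (2.10, SE 0.56). Basal markers summed to 17436 to 28930 CPM with cilengitide, suprabasal markers to 17940 to 47513 CPM and leukocyte markers to 4424 to 8622 CPM. The comparison with vehicle shares its vehicle wounds with the genotype comparison above, so the 2 are not independent.

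Set against WT with vehicle, 1 member was called in the treated wounds, Dsg3. It had 147, 366, 322 and 259 CPM in treated and 120.5, 188, 119 and 110.0 CPM in WT wounds, and rose by 1.03 on the log2 scale (SE 0.29, adjusted p = 0.0427 in edgeR with Benjamini-Hochberg adjustment). Treated replicate 1 lay below WT replicate 2, so the groups overlapped. Of the members 1 of 10 was called higher, against 5.15% of 15514 genes. This call was lost at 3-fold, with all genes of at least 1 count, with all groups in 1 fit, and without any 1 of 6 of the 8 wounds. Dsc2 had 132, 413, 206 and 259 CPM in treated and 12.96, 153, 10.98 and 30.004 CPM in WT wounds (log2 fold change 2.28, SE 0.88), and was called with DESeq2 and without WT replicate 2. WT replicate 2 was the highest WT wound for both genes. Over all genes, DESeq2 called 1546 of 18975 higher, and the fit without WT replicate 2 called 1192 of 15776 higher.

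Of the other genes, Dsg1a came closest to a call. It had 838, 643, 569.8 and 426 CPM in treated and 1241, 794, 1237 and 1346 CPM in WT wounds, a log2 fold change of -0.89 (SE 0.25). Its adjusted p was 0.0396 in edgeR with Benjamini-Hochberg adjustment, under the threshold, but the change was under 2-fold. It was called lower without treated replicate 1 (-1.09) and without WT replicate 2 (-1.02). In these fits 569 of 15711 and 606 of 15776 genes were called lower. Dsc1 had 967, 719, 862 and 574 CPM against 1477, 998, 1088 and 1369 CPM (-0.65, SE 0.20). In Dsc1, Pkp1 and Pkp3, 3 of 10 members, all treated wounds were below all WT wounds, against 15.6% of all genes. The plaque genes had log2 fold changes of -0.23 (Jup, SE 0.18) to -0.36 (Pkp3, SE 0.13). None of the 10 other desmosome genes, 12 junction genes and 7 transcription factors was called in either direction, and their median log2 fold changes were -0.63, -0.19 and -0.44. The suprabasal markers summed to 17940 to 47513 CPM in treated and 45683 to 88211 CPM in WT wounds, without overlap, while the basal sums overlapped, and the part of this in the differences was not tested.

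The make-up of the cadherins was then described as shares, a measure chosen after the values were seen and given with no test. Among Dsg1a, Dsg1b and Dsg3, on the RPKM scale, the lower-layer Dsg3 made up 9.64%, 19.4%, 10.015% and 8.63% in WT wounds with vehicle (replicates 1 to 4). It made up 78.9%, 73.9%, 81.7% and 41.4% in Col5a1CKO wounds with vehicle and 15.3%, 34.0%, 33.2% and 35.4% in those with cilengitide. The Col5a1CKO wounds with vehicle were above all others, and the 2 remaining groups overlapped. Among Dsc1, Dsc2 and Dsc3, Dsc2 made up 0.4995% to 7.33% in WT with vehicle, 26.9% to 52.8% in Col5a1CKO with vehicle and 6.75% to 18.9% with cilengitide. Dsc3 stayed between 32.0% and 54.1% in all 12 wounds, while Dsc1 ranged from 2.997% to 66.6%.

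In the time course the same shares were less distinct. At day 14 Dsg3 made up 3.41% to 16.3% (median 8.36%) of the desmogleins in WT, 3.26% to 85.4% (median 29.1%) in Col5a1CKO and 21.3%, 45.7% and 33.7% in injected wounds. The lowest Col5a1CKO share is that of replicate a, where Dsg3 had 1 read. Dsc2 made up 0.431% to 10.955% of the desmocollins in WT, 2.71% to 63.3% in Col5a1CKO and 17.9%, 24.1% and 9.95% in injected wounds. At day 19 Dsc2 made up 1.66%, 4.66% and 4.26% in WT and 28.1%, 14.1% and 4.80% in Col5a1CKO wounds, without overlap though the last value was close. Dsg3 made up 19.5%, 21.8% and 15.1% of the desmogleins in WT and 45.1%, 37.2% and 10.4% in Col5a1CKO wounds of that day, with overlap. Among WT wounds of day 14 the Dsg3 share overlapped between the library sets (3.41% to 9.65% in the lower and 6.19% to 16.3% in the upper set). The Dsg1b share did not (12.98% to 14.6% and 17.9% to 30.9%), nor did the Dsg1a share (75.99% to 82.0% and 52.8% to 75.93%).

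**Figure D4:**
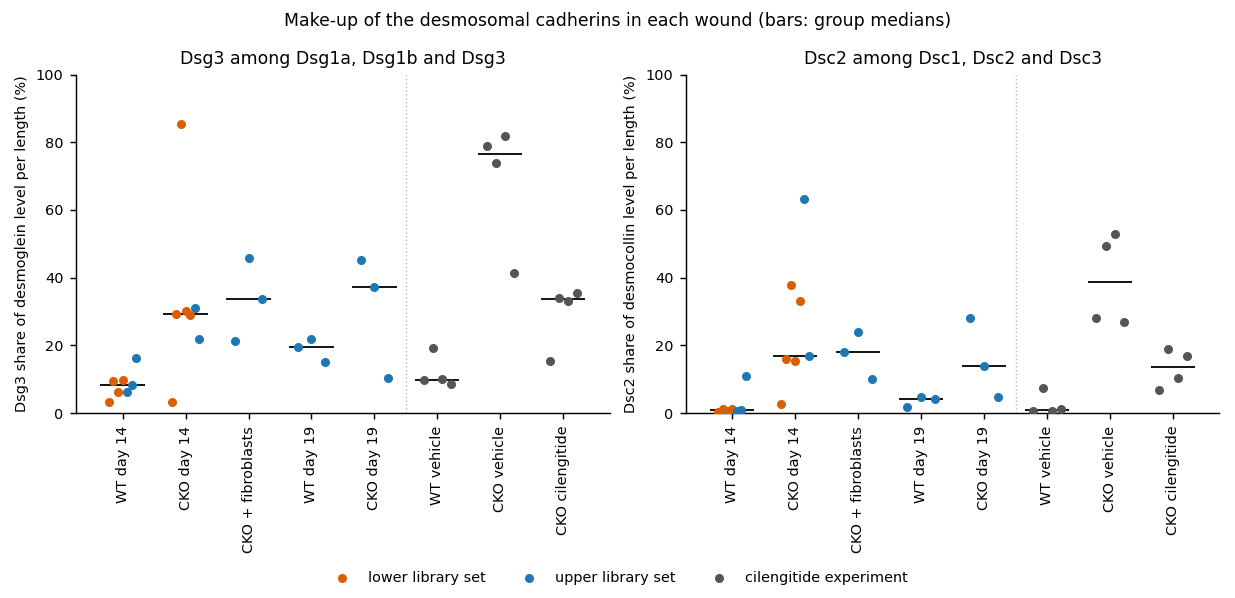
Share of Dsg3 in the summed RPKM of Dsg1a, Dsg1b and Dsg3 (left) and of Dsc2 in that of Dsc1, Dsc2 and Dsc3 (right), in percent, for each wound by group, with medians as bars. In the cilengitide experiment the 4 Col5a1CKO wounds with vehicle lie above the 4 WT wounds in both panels.

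To set the genes against the epithelium left in each biopsy, levels were divided by the epithelial reference of the same wound, again a description. In WT wounds with vehicle, Dsp was 2.50 to 2.83 above the reference on the log2 scale, and Pkp1 1.40 to 1.55. In Col5a1CKO wounds with vehicle Dsp was 1.02 to 2.26 above it and Pkp1 0.20 to 1.43, while Jup was 1.29 to 1.38 above it in WT, and in Col5a1CKO wounds 1.14 to 3.69 above it. Dsg3 lay between -2.81 and -1.96 in WT and between -0.64 and 0.71 in Col5a1CKO wounds with vehicle, and Dsc2 moved from between -6.21 and -2.26 to between -0.49 and 0.60. Dsg1a went the other way, from between 0.11 and 0.80 in WT to between -4.05 and -0.07. On this measure 86.9% of all genes were higher in every Col5a1CKO wound with vehicle than in every WT wound, and Dsg3 and Dsc2 were 2 of them, a direction they shared with most genes. Every Col5a1CKO wound lay below every WT wound for 0.661% of all genes and for 2 of the 10 members, Dsg1a and Dsp. The reference itself was 1.47 to 7.88 in these Col5a1CKO wounds and 9.52 to 9.68 in WT wounds on the log2 CPM scale. Dividing by it raises genes that do not fall with the epithelium, so 0.661% is no neutral background. Dsg1a rests on 32 and 13 reads in Col5a1CKO replicates 2 and 3. With cilengitide Dsp lay between 2.51 and 2.76 and Pkp1 between 1.35 and 1.51, which overlaps the WT ranges, and Dsg3 lay between -2.18 and -0.98. At day 19 Dsc2 was at -5.21 to -4.09 in WT wounds, against -2.60 to -0.39 after deletion of Col5a1, and Dsg1b at -4.67 to -3.06 and -2.54 to -1.58. With Dsg3, Dsc1 and Jup, 5 of 10 members had every Col5a1CKO wound above every WT wound on this measure, against 29.97% of all genes.

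**Figure D5:**
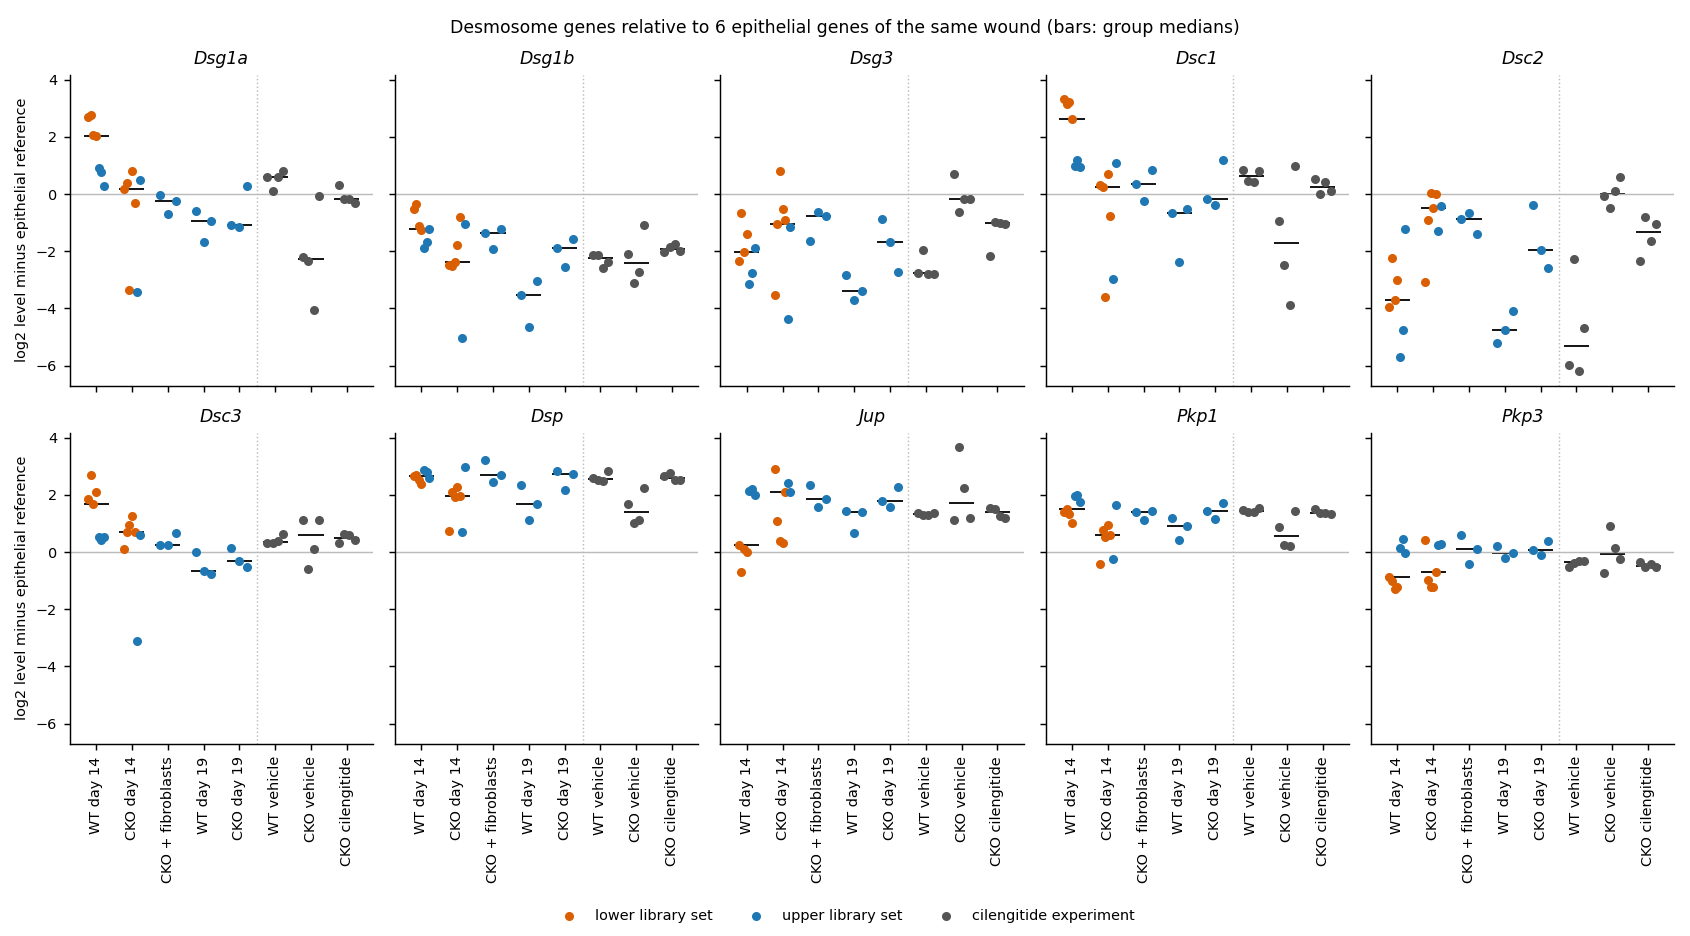
Log2 level of each desmosome gene minus the mean log2 level of 6 epithelial genes in the same wound, by group, with medians as bars. Dsg3 and Dsc2 of the 4 Col5a1CKO wounds with vehicle lie above those of the 4 WT wounds, as 86.9% of all genes do, and Dsg1a and Dsp lie below, as 0.661% do.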

How the data were processed

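RNA of 35 wounds was measured by bulk RNA sequencing. The authors deposited raw read counts per RefSeq gene in 2 tables, one of 23 and one of 12 libraries. Per the study's methods, stranded TruSeq libraries were read from a single end, aligned with HISAT2 to NCBI37/mm9, and uniquely aligned reads over exons were counted in SeqMonk. Whether the cilengitide libraries were made this way is not given in the sources used here. Rows naming no gene (30 rows with 0.0492% of counts, and 1 row with 5.9e-05%) were left out, and a symbol with several rows was taken by its row with the most counts. The tables were fitted separately.

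From these counts, each comparison was fitted on its own groups with edgeR 4.0.16 in R 4.3.3 (TMM scaling, filterByExpr with a minimum count of 10, glmQLFit and glmQLFTest, two-sided, Benjamini-Hochberg adjustment over all genes that passed the filter). All 10 members passed it in every comparison. RPKM values use the transcript lengths of the first table for both. For the epithelial reference, 0.1 was added to each CPM before the log2. Simulated counts with genes changed 4-fold were used to test the fits. Alternatives were DESeq2 1.42.0, RLE or library size scaling, no filter beyond 1 count, a 3-fold threshold, summed rows, all groups in one fit, the library set as a covariate or within a set, a replicate block, and each wound left out in turn. The members and gene lists were chosen with earlier results of these data known. All 10 members are named, and of the other lists up to 3 called genes each with the smallest adjusted p, of which 1 gene is not reported here. For likeness, the 5 genes per table with the highest Spearman correlation between log2(CPM + 1) and the members' mean Z score are named. Depth sets the counting error only, and most of the error here is between wounds.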

Additional observations from a re-analysis of the deposited data

Results flagged for a closer look

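Gaps between the wounds of a group were taken on the CPM scale. There chance gives a large gap in about 1 in 20 sets only if values are normally spread. Several groups here spread over orders of magnitude, so the number flagged cannot be set against that rate. Of 50 sets of values (a gene in a group of at least 4 wounds), 14 had a wound whose gap to the next was large for the range of its group, and sets from the same wound are not independent. Replicate 4 of the Col5a1CKO wounds with vehicle was the high wound in 8 of them, with 224 CPM of Dsg1a, 111 CPM of Dsg1b, 466 CPM of Dsc1, 356 CPM of Dsc2, 1126 CPM of Dsp, 535 CPM of Jup, 634 CPM of Pkp1 and 199.9 CPM of Pkp3. Replicate g of the Col5a1CKO wounds of day 14 was far above the rest in Jup (2601 CPM) and Pkp3 (728 CPM). It belongs to the upper library set, and the next highest wound, replicate d (707 and 241 CPM), to the lower set. The part of the set in these gaps was not tested. Among WT wounds, replicate g of day 14 stood out in Dsg1b (513 CPM) and Dsc2 (512 CPM), and replicate 2 with vehicle in Dsg3 (188 CPM) and Dsc2 (153 CPM).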

How the results depend on the processing

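Of the values recomputed under the alternatives, 1053 kept their direction and their side of the threshold, 54 newly passed it, 28 no longer passed it and 35 turned direction, and where a value turned the cause was not tested. The number of members called at day 14 was 0, became 1 with DESeq2, and ranged from 0 to 2 with single wounds left out. At day 19 it was 0, and 1 with DESeq2. For injected against WT wounds it was 3 and became 0 with all groups in one fit. It was 8 with the library set as a covariate (1021 of 15317 genes called lower) and 8 within the upper set. For Col5a1CKO against WT with vehicle it was 2, with DESeq2 7, with all groups in one fit 5 (2245 of 15915 genes called lower), and 0 to 8 with single wounds left out. For cilengitide against vehicle it was 1, with DESeq2 4, with all groups in one fit 2 (1225 of 15915 genes called higher), and 0 to 9 with single wounds left out. For cilengitide against WT it was 1, with DESeq2 2, at 3-fold 0, with all genes of at least 1 count 0, with all groups in one fit 0, and 0 to 3 with single wounds left out. With a replicate block the calls were 2 at day 14 (Dsg1a and Dsc1, lower), 0 at day 19, 5 for injected against other Col5a1CKO wounds, all higher, and 6 for injected against WT wounds, of which 3 were lower and 3 higher. Of all genes, the block called 567 of 14367 lower at day 14 and 1415 of 15162 higher for injected against other Col5a1CKO wounds. For injected against WT wounds it called 1718 lower and 1458 higher of 14606. The block kept only letters found in both groups, so the comparisons of injected wounds left out replicates d to g of the other group. Among them were the high Col5a1CKO replicates d and g. The injected replicates a to c belong to the upper set, and replicates a to c of WT and Col5a1CKO to the lower set. In these block fits group and set therefore cannot be told apart. The block turned Dsc2 at day 14 to -1.04, Dsg1a in injected against other Col5a1CKO wounds to 5.18, and in injected against WT wounds Dsp to 0.056, Jup to 1.92 and Pkp3 to 1.02. Same-lettered wounds did not deviate together throughout (correlations -0.46 to 0.57 at day 14, -0.43 to -0.32 at day 19, -0.19 to 0.41 and 0.02 to 0.39 for injected wounds), so the letters were not taken to pair them. No replicate block was fitted in the cilengitide experiment, whose labels give no shared numbers. In injected Col5a1CKO wounds against those without fibroblasts, the log2 fold changes with the set as a covariate and within the upper set were -0.404 and -0.32 for Dsg1b, -0.71 and -0.63 for Dsc1, -0.32 and -0.25 for Dsc2, -0.091 and -0.012 for Dsc3, -0.095 and -0.016 for Dsp, -0.13 and -0.0496 for Jup, -0.24 and -0.16 for Pkp1 and -0.14 and -0.061 for Pkp3. With scaling by library size only, Dsc1 at day 19 was -0.037 and Dsg1a in injected against other Col5a1CKO wounds 0.0064. With single wounds left out, log2 fold changes crossed 0 for Dsc2 at day 14 (-0.32 to 1.97), for Dsg3 (-0.44 to 0.97) and Dsc1 (-0.21 to 0.71) at day 19, for Dsg1a (-0.30 to 0.80), Dsg3 (-0.11 to 1.52), Dsc2 (-0.28 to 1.17) and Dsc3 (-0.11 to 1.26) in injected against other Col5a1CKO wounds, for Dsg3 in injected against WT wounds (-0.39 to 0.74) and for Dsc2 in the vehicle wounds (-1.52 to 2.47). In simulated data 14.4% (injected against WT) to 73.7% (cilengitide against WT) of genes changed 4-fold were recovered, so differences of that size can be missed.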
